A study of Mus musculus with 7 samples.

Results

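The integrin subunits and laminin chains are the receptor and ligand sides of the contact between a muscle stem cell and the basement membrane around its fibre, and 33 of their genes were read in satellite cells of geriatric and young mice. The genes were chosen by name: 23 integrin subunits, without the integrin genes whose products served in the cell sort, and 10 laminin chains, of the 36406 names on the array. Satellite cells are the resident stem cells of muscle. They were isolated from resting muscle of male C57BL/6 mice by flow cytometry, as cells that carried integrin α7 and CD34 and lacked CD31, CD45, CD11b and Sca1, and the RNA of these few cells was amplified before labelling. The geriatric group comprised arrays 1 to 4, from mice aged 28, 28, 29 and 30 months, and the young group arrays 1 to 3, from mice aged 2, 2 and 3 months. The study asked what changes in gene expression accompany aging of resting satellite cells. Geriatric arrays 1 and 2 carried the same sample name and were averaged, so 3 geriatric samples were compared with 3 young samples. The labels call them biological replicates without saying whether mice were pooled, and the p-values therefore measure only how these samples vary.

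Each integrin is an αβ heterodimer that spans the plasma membrane, binds matrix proteins or counter-receptors outside the cell and connects through talin and kindlin to actin inside. Each laminin is a trimer of an α, a β and a γ chain, and the trimers polymerise into a sheet that is tied to type IV collagen. Satellite cells lie between the fibre membrane and this sheet, where laminin-211 (chains α2, β1 and γ1) is the main laminin of mature muscle fibres. In mice, integrin β1 is required for satellite cells to stay in quiescence.

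The probes through which the main genes were read are shown here because every value below is the signal of 1 such sequence. Each probe is 60 bases long, the sequences and mm9 coordinates are those of the array files, and the first 30 bases are given unless stated. Where in the transcript (coding exon or untranslated region) each probe lies was not annotated here. The Itgb1 probe is shown whole, since its positions on the genome span 5896 bases and it therefore joins sequence from both sides of an intron. Its capitals mark 2 matches of the codons of the NPXY motif, by which the tail of integrin β1 binds talin and kindlin. Such letters occur in 0.217% of all probes of the array on their own strand and in 0.411% on either strand.
Itgb1 (chr8:131250081-131255976, + strand): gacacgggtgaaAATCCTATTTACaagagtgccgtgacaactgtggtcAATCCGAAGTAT
Lama4 (chr10:38825794-38825853, + strand): ttggatgtagactcagaagtgaaccatgta
Lamb1 (chr12:32014411-32014470, + strand): ccgaggcagtcatctacaaataacccatca
Itgb8 (chr12:120401278-120401337, - strand): atgtagatcatctgggaaagcactgattac
Itgb4 (chr11:115869666-115869725, + strand): gagctggcacaagtccccagccttttgttc
Itga9 (chr9:118807900-118807959, + strand): taccttcagctttgtgtagccaaaaaagcc
Itga2 (chr13:115626714-115626773, - strand): ctcggcttcttcaaaagacaatataagaaa

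The gene Itga10 has 2 probes that are all but the same probe, and they are shown to make clear that their values are not independent. The capitals mark the 24 shared bases among those shown. In full, 54 of the 60 bases are shared at an offset of 6.
Itga10 (chr3:96468377-96468436, + strand): agtcccTCCTGGGGACTGTCATGGTGAGCA
Itga10, other probe (chr3:96468383-96468442, + strand): TCCTGGGGACTGTCATGGTGAGCAaatggt

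Of the 55681 probes on each array, 38044 to 40998 were well above background on geriatric arrays and 40255 to 41289 on young arrays, and no spot was saturated. All 12 satellite cell markers, Pax7 and Calcr among them, were well above background on every array, with a summed signal of 199 to 219 times the array's 75th percentile on geriatric arrays and 189 to 227 times on young arrays. Markers of fibro-adipogenic progenitors, the matrix-making stromal cells of muscle, summed to 13.7, 13.7, 30.5 and 25.7 times the 75th percentile on geriatric arrays 1 to 4, against 9.35, 10.3 and 6.89 times on young arrays, although Pdgfra, which defines these cells, never stood well above background. Of their 10 tested markers, 9 were higher in geriatric samples. The brightest was Dcn, at log2 2.55 in the averaged sample of geriatric arrays 1 and 2, 4.37 in geriatric 3 and 4.32 in geriatric 4. It was at 2.47, 2.56 and 1.54 in young samples. The higher sums on geriatric arrays 3 and 4 rest mainly on this gene. Endothelial markers summed to 8.65 to 12.6 times on geriatric arrays and 7.998 to 9.77 times on young arrays. The brightest of these was Tek (mean log2 3.12 in geriatric and 2.95 in young samples), which made up most of the sum on every array. The 10 markers of pericytes and smooth muscle, 6 higher and 4 lower in geriatric samples, summed to 127 to 163 times on geriatric arrays and 135 to 158 times on young arrays. The brightest of them were Mcam (mean log2 6.52 in geriatric and 6.58 in young samples) and Notch3 (5.45 and 5.15), whereas Rgs5 (-4.13 and -3.32) and Kcnj8 (-5.86 and -3.44) were dim. Sums of different lists rest on different probes and give no relative amounts of cells. All arrays lay on 1 slide, with the young arrays and geriatric array 1 in its first row and geriatric arrays 2 to 4 in the second, so that a comparison within a row rests on 1 geriatric array.

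Of the 33 genes, 27 had a probe that stood well above background on 3 or more of the 7 arrays, which made them testable, namely 19 integrin subunits and 8 laminin chains. All 8 laminin chains and 17 of the integrin subunits were measured on all 7 arrays. The other 6 genes, with 8 probes, gave no signal well above background on any array. These were Itga4, the α4 subunit of the VCAM-1 receptor, Itgae and Itgax, α subunits of leukocytes, Itgb6, an epithelial αv partner, Lama1, a laminin α chain found mainly in embryonic basement membranes, and Lamb3, the β chain of the epithelial laminin-332. Levels below are log2 of the processed signal relative to the array's 75th percentile, in the order averaged sample of geriatric arrays 1 and 2, geriatric 3 and geriatric 4, against young 1, 2 and 3. Differences are geriatric minus young, tested with limma and adjusted by Benjamini-Hochberg over the 27395 features tested. Levels of different genes come from different probes and are not set against each other.

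No integrin or laminin gene passed an adjusted p of 0.05 (0 of 27, limma), where 0.0256% of all features did (0.011% higher and 0.0146% lower). An unadjusted p under 0.05 was reached by 6 genes, 22.2% of those tested, against 7.23% of all features. Of these, Lama4, Itga9, Itgb8 and Itgb4 were higher in geriatric samples (4 genes, against 4.42% of all features) and Lamb1 and Itga10 lower (2 genes, against 2.81%). In 7 genes the geriatric and young samples did not overlap, which is 25.9% of those tested, against 12.8% of all features. Lama4, Itgb8, Itga9 and Itga3 lay higher without overlap (4 genes, against 7.18% of all features) and Lamb1, Itga10 and Itga2 lower (3 genes, against 5.65%). A difference of at least 1 log2 unit was seen in 8 genes, or 29.6%, against 9.02% of all features. These were Lama4, Lamc3, Itga9, Itgb8 and Itgb4 on the higher side (5 genes, against 5.45% of all features) and Lamb1, Itga10 and Itga2 on the lower side (3 genes, against 3.57%). The direction was otherwise mixed: 15 of 27 genes had a difference above 0, or 55.6%, against 49.7% of all features. The median difference was -0.020 over the integrins (9 higher, 10 lower) and 0.27 over the laminins (6 higher, 2 lower), beside -0.0024 over all tested features. Itga9 passed the filter only through its geriatric arrays and so had to differ, and its p is no support for a difference. Among features measured on at least 1 array of each group, which leaves out Itga9, the counts were 5 of 26 genes at an unadjusted p under 0.05 (19.2%, against 6.72% of such features), 6 without overlap (23.1%, against 12.4%) and 7 at 1 log2 unit (26.9%, against 8.4%).

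**Figure D1:**
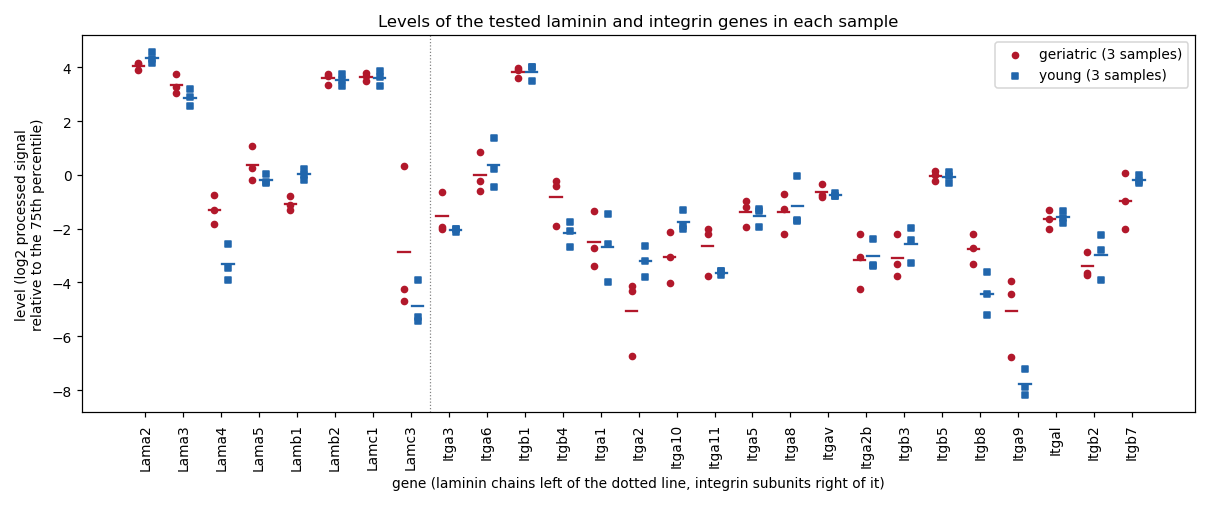
Level of each of the 27 tested genes (log2 processed signal relative to the 75th percentile, y axis) in 3 geriatric samples (circles) and 3 young samples (squares), with group means as bars. Lama4, Itgb8, Itga9 and Itga3 lie higher and Lamb1, Itga10 and Itga2 lower in every geriatric sample than in any young sample, and the other genes overlap. Heights of different genes come from different probes and are not comparable.

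Among the laminin α chains, Lama4 had the largest difference and Lama2 the smallest in size. Lama4 encodes the α4 chain of laminin-411 and laminin-421, which are found in vessel walls and in basement membranes of developing muscle. Its levels were -1.29, -0.74 and -1.83 in geriatric samples, against -3.92, -2.57 and -3.48 in young samples. Every geriatric sample was above every young sample. The difference of 2.03 ± 0.44 (SE) corresponds to 4.09-fold and had an adjusted p of 0.352, with an unadjusted p of 0.00391 (limma, 3 geriatric and 3 young samples). Within the first slide row, geriatric array 1 alone was 2.03 above the young arrays. Pdgfrb was named after its values were seen. It had the highest difference of the 10 markers of pericytes and smooth muscle, of which 6 were higher and 4 lower. Its levels were -1.48, -1.45 and -1.22 in geriatric samples, against -3.88, -3.35 and -3.64 in young samples (difference 2.24 ± 0.20 (SE), adjusted p of 0.0603, limma). Kcnj8 and Rgs5, of the same list, differed by -2.43 and -0.80. The sort selected against CD31, an endothelial antigen, and Sca1, an antigen of fibro-adipogenic progenitors. Higher in geriatric samples were 9 of 10 tested markers of fibro-adipogenic progenitors and 5 of 9 of endothelial cells. The part of pericytes or of these other cells in the Lama4 difference was not tested. In RNA from sorted populations, fewer cells of a type and less RNA per cell cannot be told apart.

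Lama2, the α2 chain of laminin-211 whose loss causes congenital muscular dystrophy, read 3.89, 4.15 and 4.13 in geriatric samples, against 4.15, 4.56 and 4.29 in young samples. The groups met at the level of geriatric 3 and young 1, and the other young samples were above all geriatric samples. The difference was -0.28 ± 0.19 (SE) with a 95% interval of -0.74 to 0.18, and its adjusted p was 0.814. A second Lama2 probe gave -0.21.

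Lama5, the α5 chain of laminin-511, which is laid down by activated satellite cells in mice, had levels of 1.06, 0.27 and -0.20 in geriatric samples, against -0.30, -0.25 and 0.020 in young samples. The averaged geriatric sample stood above the rest, and the groups overlapped. The difference was 0.55 ± 0.34 (SE) (adjusted p of 0.802), and it was 0.21 without geriatric arrays 1 and 2. Lama3, the α3 chain of epithelial laminins, ran 0.47 higher with an adjusted p of 0.782, and its other probe gave 0.54.

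Of the β chains, Lamb1 read lower in every geriatric sample, while the groups overlapped for Lamb2. Lamb1, the β1 chain of laminin-211, laminin-411 and laminin-511, was at -1.30, -1.11 and -0.79 in geriatric samples, against -0.18, -0.0024 and 0.24 in young samples. All geriatric samples were below all young samples, and the spread within each group was small. Its mean level was -1.07 ± 0.26 in geriatric samples and 0.020 ± 0.21 in young samples (SD, n = 3 each), a difference of -1.09 ± 0.21 (SE) with a 95% interval of -1.61 to -0.56. This is 2.12-fold lower, with an unadjusted p of 0.00233, the lowest of the 27 genes, and an adjusted p of 0.307 (limma). Within the first slide row the difference was -1.25. Over the 20 alternative ways of processing run, it ranged between -1.25 and -0.97, with adjusted p-values of 0.0993 to 0.809.

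Lamb2, the β2 chain that replaces β1 at the neuromuscular junction, was at 3.35, 3.68 and 3.76 in geriatric samples, against 3.54, 3.76 and 3.30 in young samples. The groups overlapped fully, with a difference of 0.064 and a 95% interval of -0.44 to 0.57. Lamc1, the γ1 chain common to most laminins, likewise read 3.69, 3.78 and 3.50 in geriatric samples, against 3.31, 3.85 and 3.65 in young samples. Its difference was 0.052, with a 95% interval of -0.45 to 0.55 and an adjusted p of 0.977.

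Lamc3, the γ3 chain, which is known from brain, retina and testis, was high in a single geriatric sample. It read 0.34, -4.25 and -4.68 in geriatric samples, against -5.42, -3.92 and -5.29 in young samples. The averaged sample was high on both of its arrays, at 0.35 and 0.32, while the other geriatric samples lay within or near the young range. The difference of 2.01 ± 1.39 (SE) (adjusted p of 0.827) was 0.41 without arrays 1 and 2.

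**Figure D2:**
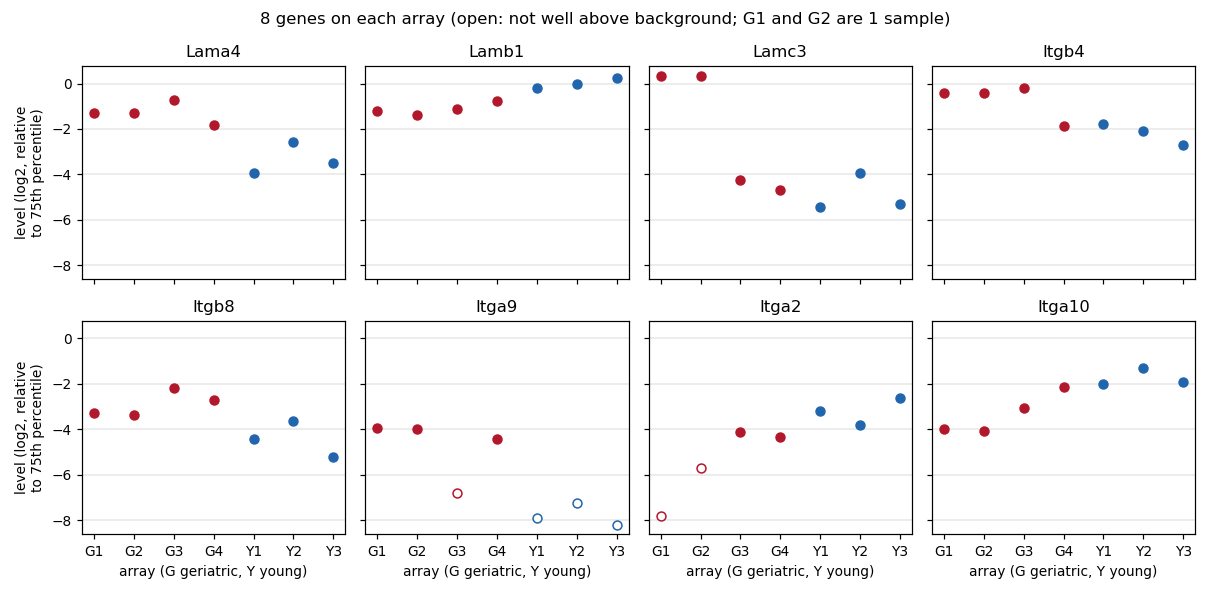
Levels of 8 genes on each of the 7 arrays (y axis, log2 relative to the 75th percentile), with open circles where the probe was not well above background. Lama4 and Itgb8 are higher and Lamb1 and Itga10 lower on all geriatric arrays, Lamc3 is high on geriatric arrays 1 and 2 only, and Itga9 has no filled circle on a young array.

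The laminin receptors of satellite cells pair β1 with α3, α6 or α7, and α6 also pairs with β4 in epithelia. Itgb1 was at 3.97, 3.89 and 3.59 in geriatric samples, against 3.99, 4.03 and 3.50 in young samples. The values overlapped throughout, at a mean of 3.82 ± 0.20 in geriatric samples and 3.84 ± 0.29 in young samples (SD, n = 3 each). The difference was -0.020 ± 0.22 (SE) with a 95% interval of -0.56 to 0.52, so a change of 1 log2 unit lies outside the interval for the probe shown above. A second Itgb1 probe gave -0.51, with overlapping groups.

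Itga6, the α6 subunit, varied more between samples than between groups. Its levels were -0.58, 0.84 and -0.24 in geriatric samples, against 1.37, -0.46 and 0.21 in young samples. The difference of -0.37 ± 0.58 (SE) had a 95% interval of -1.80 to 1.07. Itga3, the α3 subunit, was at -2.00, -0.64 and -1.92 in geriatric samples, against -2.01, -2.01 and -2.14 in young samples. The groups did not overlap, but only geriatric 3 stood clear of the young range. Its difference of 0.53 ± 0.39 (SE) (adjusted p of 0.838) was 0.092 without geriatric 3 and 0.11 within the first slide row.

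Itgb4, the β4 subunit that joins α6 in the hemidesmosomes of epithelia, was at -0.42, -0.21 and -1.88 in geriatric samples, against -1.76, -2.07 and -2.70 in young samples. The averaged sample and geriatric 3 were above all young samples, and geriatric 4 lay within their range. The difference was 1.34 ± 0.51 (SE), or 2.53-fold, with an unadjusted p of 0.0404 and an adjusted p of 0.657 (limma). It was 1.77 within the first slide row. The 7 epithelial markers summed to 0.896 to 1.19 times the 75th percentile on geriatric arrays and 0.749 to 1.02 times on young arrays, with all 4 tested markers higher in geriatric samples, while Cdh1 and Krt8 never stood well above background. The part of such cells in the Itgb4 difference was not tested.

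Among the collagen receptors, which pair an α subunit with β1, Itga10 and Itga2 were lower in geriatric samples. Itga10, the α10 subunit known from cartilage, read -4.04, -3.04 and -2.12 in geriatric samples, against -2.00, -1.30 and -1.91 in young samples. All geriatric samples were below all young samples, geriatric 4 by little. The difference was -1.33 ± 0.51 (SE), or 2.51-fold lower, with an unadjusted p of 0.0419 and an adjusted p of 0.661 (limma). The overlapping second probe gave -1.41, which is no second measurement. The difference was -2.25 within the first slide row and -0.84 without geriatric arrays 1 and 2.

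Itga2, the α2 subunit known from platelets and epithelia, was dim. It read -6.75, -4.13 and -4.32 in geriatric samples, against -3.19, -3.79 and -2.63 in young samples. Its probe was well above background on geriatric arrays 3 and 4 and on all 3 young arrays, but not on geriatric arrays 1 and 2. The groups did not overlap, with a difference of -1.86 ± 0.76 (SE) (adjusted p of 0.687). The difference was -1.02 without those arrays and -0.97 with another background correction.

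Itga11, the α11 subunit of fibroblasts, and Itga1, the α1 subunit, overlapped between groups. Itga11 was 0.98 higher with an adjusted p of 0.744. It was high on geriatric arrays 3 and 4, the arrays with the higher sums of fibro-adipogenic markers, which rest mainly on Dcn. The Itga11 difference was -0.054 within the first slide row, and the part of fibro-adipogenic cells in it was not tested. Itga1 had a difference of 0.18 with a 95% interval of -1.77 to 2.14.

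Among the subunits of receptors that bind the tripeptide RGD, as in fibronectin and vitronectin, the groups overlapped for each tested gene but Itgb8. Itgav, the αv subunit, read -0.82, -0.76 and -0.34 in geriatric samples, against -0.67, -0.80 and -0.80 in young samples. Its difference was 0.12 ± 0.19 (SE) with a 95% interval of -0.35 to 0.58. Itgb5, an αv partner that binds vitronectin, read -0.23, -0.0065 and 0.14 in geriatric samples, against -0.28, -0.030 and 0.11 in young samples. The difference was 0.033 ± 0.19 (SE) with a 95% interval of -0.44 to 0.51, and the samples of both groups were interleaved.

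Itgb8, the β8 subunit through which αv binds and activates latent TGF-β, was at -3.32, -2.19 and -2.72 in geriatric samples, against -4.42, -3.62 and -5.22 in young samples. Every geriatric sample was above every young sample. The difference of 1.68 ± 0.49 (SE), or 3.20-fold, had a 95% interval of 0.48 to 2.88, an unadjusted p of 0.0144 and an adjusted p of 0.521 (limma). It was 1.15 within the first slide row and 0.98 with another background correction.

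Itga5, the α5 subunit of the classical fibronectin receptor, was at -0.98, -1.93 and -1.21 in geriatric samples, against -1.36, -1.26 and -1.93 in young samples. The groups overlapped, with a difference of 0.14 ± 0.33 (SE) and a 95% interval of -0.66 to 0.95. The other RGD-binding subunits overlapped between groups as well. The difference was -0.25 for Itga8, the α8 subunit that binds nephronectin, -0.53 for Itgb3, the β3 subunit, and -0.14 for Itga2b, its platelet partner. Adjusted p-values of these 3 genes were 0.960, 0.886 and 0.978 in that order. Pf4 and Ppbp, which define platelets, gave no signal well above background on any array.

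Itga9, the α9 subunit that binds tenascin-C and VCAM-1, was seen above background in geriatric samples only. Its probe was well above background on geriatric arrays 1, 2 and 4 and on none of the 3 young arrays. It read -3.96, -6.78 and -4.42 in geriatric samples, against -7.90, -7.22 and -8.19 in young samples, whose signals were below the lowest signal of any probe well above background on the same array. Geriatric 3 was below its own array's floor as well. Set against the young floor, the geriatric mean, geriatric 3 included, was 1.78-fold higher. This is no lower limit, since geriatric 3 was itself below its floor. The fitted adjusted p of 0.507 (limma) is left without weight by the filter's choice of this gene. The measured means were -5.05 ± 1.52 in geriatric samples and -7.77 ± 0.50 in young samples (SD, n = 3 each). With another background correction the fitted difference was 0.59, against 2.72 here. This is smaller than the 0.83 log2 units of that ratio to the floor, so the ratio is given for the processed signal only. Its relative Itga4 was below that mark on all arrays.

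The groups overlapped for each leukocyte integrin tested. Itgal, the αL subunit, had a difference of -0.084 (adjusted p of 0.968), and its second tested probe gave 0.30. Itgb2, the β2 subunit of leukocytes, had -0.43 (adjusted p of 0.904). Itgb7, the β7 subunit of gut-homing lymphocytes, had -0.78 (adjusted p of 0.814) and -0.26 without geriatric arrays 1 and 2, where its level was -2.00 against -0.31 to -0.01 on young arrays. The integrin genes used for sorting are no members here: Itga7 was at 1.83, 1.32 and 1.60 in geriatric samples, against 1.92, 2.10 and 2.04 in young samples, a difference of -0.44 with no overlap and an adjusted p of 0.703, which missed the threshold. Itgam, which encodes CD11b, was at 6.51, 6.52 and 6.78 in geriatric samples, against 6.60, 6.59 and 6.44 in young samples. It was far above the 75th percentile on all arrays although CD11b-positive cells were excluded by the sort. Of the 12 macrophage and monocyte markers on the array, Itgam included, 4 never stood well above background, Lyz2 and C1qa among them. Csf1r averaged 2.11 in both groups, while Cd68 averaged -3.72 in geriatric and -3.19 in young samples. Itgb2 averaged -3.41 and -2.97 in that order. Whether the Itgam signal came from CD11b-positive cells was not tested.

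**Figure D3:**
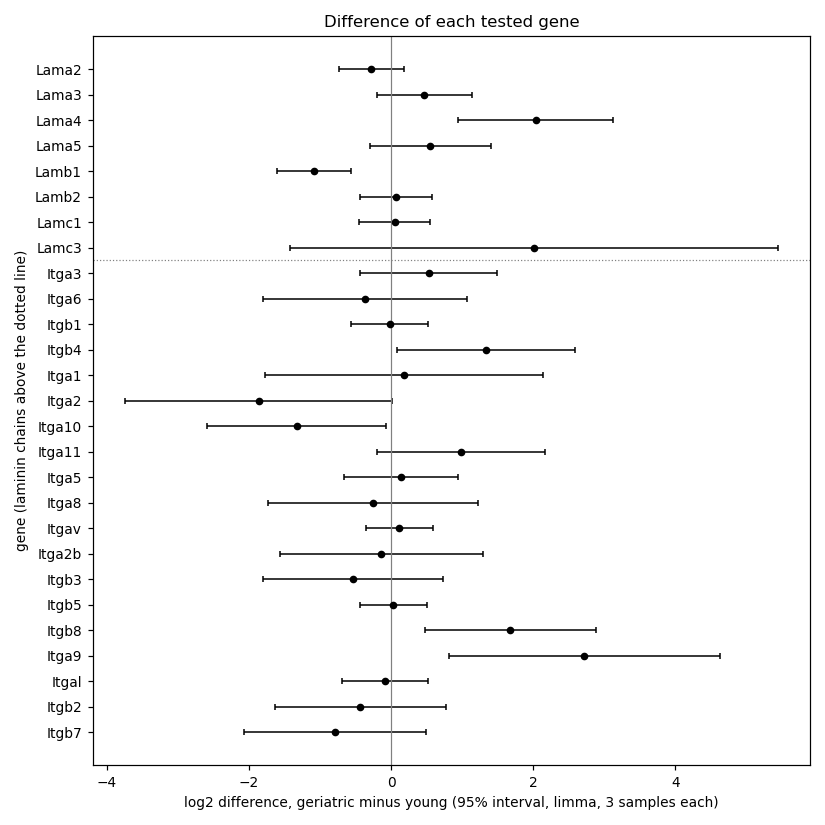
Log2 difference (geriatric minus young, x axis) of each tested gene with its 95% interval from limma, 3 samples a group. The intervals of Lama4, Itgb4, Itgb8 and Itga9 lie above 0 and those of Lamb1 and Itga10 below 0, before adjustment for multiple testing.

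The partners of integrins and laminins were read from lists of named genes. Of 26 intracellular adaptors and kinases, 24 were tested and none passed an adjusted p of 0.05, with 11 higher and 13 lower in geriatric samples. Their median difference was -0.013. An unadjusted p under 0.05 was reached by 4 of the 24, against 7.23% of all features (limma). Tns3, an adaptor that binds integrin tails, was at 0.16, 0.57 and 0.18 in geriatric samples, against -2.12, -0.78 and -1.48 in young samples. The groups did not overlap, with a difference of 1.76 ± 0.37 (SE), an unadjusted p of 0.00322 and an adjusted p of 0.334 (limma). Its relative Tns1 was 1.20 higher (adjusted p of 0.585), and Ptk2, which encodes focal adhesion kinase, differed by -0.51 (adjusted p of 0.687). The kindlin gene Fermt3 was 2.24 higher (adjusted p of 0.677, limma), the largest difference of the list, with overlapping groups. It was dim, well above background on 3 geriatric arrays and 1 young array. The kinase scaffold Ilk and talin Tln1, both part of the link to actin, had differences of -0.022 and -0.018.

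All 14 basement membrane partners and other laminin receptors were tested, 7 higher and 7 lower, with a median of -0.014 and no adjusted p under 0.05. An unadjusted p under 0.05 was reached by 2 of the 14, against 7.23% of all features (limma). Col4a5, which the filter made differ, is among them. Col4a6, the α6 chain of type IV collagen, was at -0.31, -1.24 and -1.06 in geriatric samples, against -3.46, -1.98 and -2.77 in young samples. The groups did not overlap, and the difference was 1.87 ± 0.45 (SE) (adjusted p of 0.403). Its partner chain Col4a5 stood well above background on each of the 4 geriatric arrays and on no young array. Set against the young floor, its geriatric mean was at least 8.01-fold higher, a bound given for the processed signal only. It passed the filter only through the geriatric arrays, so that its adjusted p of 0.307 is no support for a difference. Dag1, which encodes the laminin receptor dystroglycan, differed by 0.056.

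Of 19 integrin ligands other than laminins, 17 were tested, 13 higher and 4 lower, with a median of 0.27 and no adjusted p under 0.05. An unadjusted p under 0.05 was reached by 4 of the 17, against 7.23% of all features (limma). Postn, which the filter made differ, is among them. Fn1, which encodes fibronectin, was lower, at -2.92, -1.44 and -1.55 in geriatric samples, against -0.016, -0.39 and -0.87 in young samples. All geriatric samples were below all young samples, with a difference of -1.55 ± 0.47 (SE) and an adjusted p of 0.544 (limma). Svep1, a ligand of α9β1, was 1.10 higher (adjusted p of 0.615) and Vtn, which encodes vitronectin, was 0.74 higher (adjusted p of 0.618), both without overlap. Postn, which encodes periostin, was well above background on 3 geriatric arrays and on no young array, so it too passed the filter only through geriatric arrays. It was at -3.99, -3.98 and -7.68 in geriatric samples, against -7.95, -7.67 and -7.88 in young samples. Geriatric 4 lay within the young range and below its own array's floor. Set against the young floor, the geriatric mean, geriatric 4 included, was 1.58-fold higher, for the processed signal only (adjusted p of 0.671, limma, for a gene that the filter made differ). Vcam1, a ligand of α4 and α9 and itself a satellite cell marker, differed by -0.15.

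**Figure D4:**
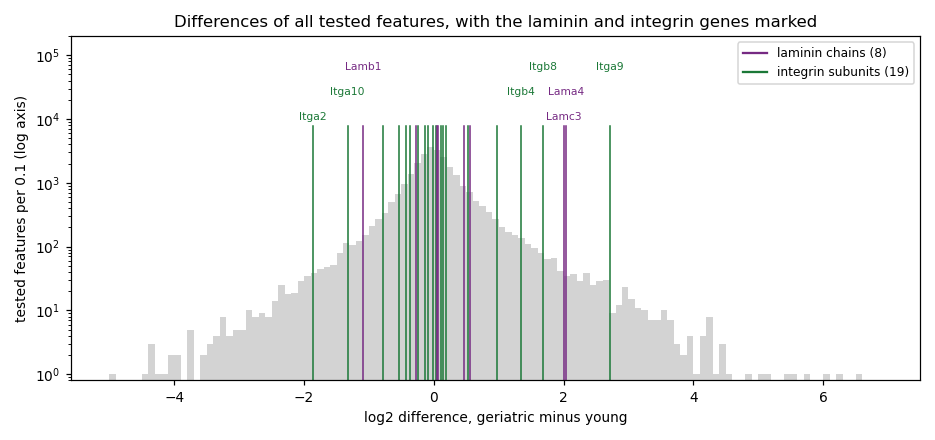
Distribution of log2 differences (geriatric minus young, x axis) over the 27395 tested features (grey, log axis of counts), with a line for each of 19 integrin subunits and 8 laminin chains. The 8 labelled genes are those at or beyond 1 log2 unit, 5 on the higher and 3 on the lower side.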

How the data were processed

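Each sample was labelled with Cy3 and hybridised to a 1-colour Agilent array. Spot intensity values, deposited as scanner output, were made with Agilent Feature Extraction 10.7.3.1, which subtracted and detrended the background, per the file headers. The authors' deposited log2 table (median 8.22 to 8.23 per array, background correction and normalization unknown) served as an alternative. Each array's processed signals were divided by their 75th percentile over non-control spots and taken to log2, without outlier spots (124 to 229 per array), averaged by probe. Probes well above background on 3 of 7 arrays were tested, and the brightest tested probe stood for its gene. Geriatric arrays 1 and 2 share a sample name and were averaged: they agreed within 2 combined errors at 95.4% of probes, other pairs at 59.9% to 66.9%. Differences were tested with limma 3.58.1 in R 4.3.3 (lmFit, eBayes, 2-sided, Benjamini-Hochberg over 27395 features). In simulated data, 49% of changes of 2 log2 units and 77% of 4 were recovered, with 6 false calls at either size. The number of arrays limits precision. Values in every sample are given for integrin and laminin genes with an unadjusted p under 0.05, groups apart or a difference of 1 log2 unit. They are also given for Itgb1, Itga3, Itga6, Itgav, Itga5, Itgb5, Lama2, Lama5, Lamb2 and Lamc1, and for some genes of the other lists. Members and lists were chosen with earlier results of these data known. Accessions of 40 of 44 member probes were in the GRCm38.p6 reference table, each with the same symbol. Names and mm9 coordinates are those of the array files. Alternatives are in the closing section. Figures were drawn with matplotlib 3.10.9.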

Additional observations from a re-analysis of the deposited data

How the results depend on the processing

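The count of integrin and laminin genes past an adjusted p of 0.05 was 0 in each of the 20 alternatives run, 1 of them (a filter that asks for at least 1 array of each group) chosen after seeing the data. The median differences moved by less than the pooled SD between samples (0.19 for integrins and 0.22 for laminins), over ranges of -0.19 to 0.13 for integrins and 0.18 to 0.44 for laminins. The count over all features, 7 as reported, was 4 with normexp and with the authors' log2 values, 2 with probes well above background on all 7 arrays, 0 with at least 1 such array in each group, 64 with geriatric arrays 1 and 2 as separate samples, 3 within the first slide row, 0 with slide row as a block, and 0 to 8 when single replicates, or geriatric 1 and 2 together, were left out. It was 0 without young 1, young 2 or geriatric 4. The numbers in the descriptions did not pair the samples (correlations of deviations -0.043, 0.030 and 0.045), and with this replicate block the count was 0, with an integrin median of -0.020 and no member call. Of the 27 tested genes, 14 kept their sign in every alternative. Median scaling, which put the median of all features at -0.093, turned Itgb5 to -0.058, Lamb2 to -0.027 and Lamc1 to -0.039. The mean of a gene's probes turned Itgal to 0.11. Separate arrays 1 and 2 turned Itga1 to -0.042, Itgal to 0.0025, Itgb1 to 0.019 and Itgb5 to -0.017. Slide row as a block, which gives the same differences as the first row alone, turned Itga1 to -0.81, Itga11 to -0.054, Itga2b to 0.038, Itgal to 0.27, Itgav to -0.089, Itgb1 to 0.096, Itgb3 to 0.30, Itgb5 to -0.14 and Lamb2 to -0.19. Leaving out replicates gave ranges across 0 of -0.47 to 0.79 for Itga1, -0.62 to 0.41 for Itga2b, -0.063 to 0.42 for Itga5, -0.78 to 0.13 for Itga6, -0.60 to 0.30 for Itga8, -0.26 to 0.10 for Itgal, -0.032 to 0.21 for Itgav, -0.19 to 0.095 for Itgb1, -0.076 to 0.13 for Itgb5, -0.052 to 0.19 for Lamb2 and -0.094 to 0.18 for Lamc1. The cause of these reversals was not tested. Signals near background limit Itga9 and Itga2, which were not tested with the filter on all 7 arrays (nor Itga9 with that on each group).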

Other observations

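The repeated arrays show how well member probes are measured. On the 31 member probes well above background on all 7 arrays, geriatric arrays 1 and 2 differed by a median of 0.0697 log2 units and by at most 0.86, and 28 of the 31 differed by under 0.2. On the 10 member probes well above background on 2 arrays or fewer, the median was 0.749 and the highest 5.06.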
